A study of Mus musculus with 14 samples.

Results

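In livers of 5-week-old male mice lacking miR-122, 1 of 10 genes of the NRF2 pathway and antioxidant defence, the heme oxygenase gene Hmox1, passed the test, where 15.0% of all genes did, and it was 3.08-fold higher than in control livers. The transcription factor gene Nfe2l2, the glutathione synthesis gene Gclm and the quinone reductase gene Nqo1 had higher values on both knockout arrays than on both control arrays, by 1.53-fold, 1.33-fold and 1.26-fold, and none of the 3 passed. Keap1, Gclc, Gsr, Txnrd1, Srxn1 and Gpx1 differed by at most 0.14 on the log2 scale in either direction. The 10 genes were taken by symbol from the authors' deposited results table; the rule uses no measured value, but the genes were listed with earlier results of these data known. All 10 were present, each with 1 probe set, among 12871 genes in that table, so no member was lost to a filter on low values.

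RNA from whole liver had been hybridised to Affymetrix whole-transcript arrays. The groups analysed here were 2 control samples of genotype miR-122loxP/loxP and 2 knockout samples of genotype miR-122loxP/loxP Alb-Cre, all male, 5 weeks old and on a C57/BL6J background. In Alb-Cre mice the albumin promoter drives the recombinase, so deletion is aimed at hepatocytes, while the design text of the series calls these mice germ-line knockouts and the sample titles call the controls wild type. A further 10 samples from 8-week-old mice were not analysed here, since the probe sets of their array type are not paired with genes in the sources used here. Levels below are log2 values of the RMA signal, a background-corrected and quantile-normalised intensity, and a level of 1 probe set is not compared with that of another. Differences are knockout minus control on the log2 scale, and genes counted as risen or fallen had an adjusted p under 0.05 in the limma fit, by Benjamini-Hochberg over all 12871 genes.

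NRF2, encoded by Nfe2l2, is a transcription factor that is kept low by KEAP1, an adaptor that hands it to a CUL3 ubiquitin ligase. When reactive compounds modify KEAP1, NRF2 escapes degradation, pairs with a small MAF protein and binds antioxidant response elements near genes for glutathione synthesis, quinone reduction, the thioredoxin system and NADPH supply. In liver this programme protects hepatocytes from electrophiles, and Hmox1 is also held down by the repressor BACH1 and is strongly used by macrophages that recycle heme.

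The core of the antioxidant response element, TGACNNNGC, was looked for in RefSeq promoter windows of GRCm38.p6 that run from 250 bases before to 50 bases after a gene's start, on both strands. The 4 matches are shown because they are the letters that NRF2 is known to read. The table held 9 windows for 7 of the 10 genes, 3 of them for Txnrd1, and none for Gclc, Gsr and Hmox1. The motif was present for 4 of these 7 genes, against 14% of the 27025 genes with a window, and in 12.4% of all 32851 windows. No match was found for Keap1, Nqo1 and Gpx1. Capitals mark the motif; all sequences run along the gene's own strand, on which the Nfe2l2 match reads forward and the other 3 read as the reverse complement, GCNNNGTCA.
Nfe2l2, chr2:75704664-75704913, minus strand, 250 bases before the start: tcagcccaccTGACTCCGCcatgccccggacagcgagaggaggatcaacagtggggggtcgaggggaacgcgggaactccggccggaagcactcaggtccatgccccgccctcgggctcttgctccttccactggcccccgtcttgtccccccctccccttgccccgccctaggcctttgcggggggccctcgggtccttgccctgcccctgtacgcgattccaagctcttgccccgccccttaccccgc
Gclm, chr3:122245307-122245556, plus strand, 250 bases before the start: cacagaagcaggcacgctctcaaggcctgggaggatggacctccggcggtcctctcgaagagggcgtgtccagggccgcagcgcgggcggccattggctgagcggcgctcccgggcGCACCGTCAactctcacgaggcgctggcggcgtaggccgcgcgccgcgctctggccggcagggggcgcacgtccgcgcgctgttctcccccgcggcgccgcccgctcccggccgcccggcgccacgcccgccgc
Txnrd1, chr10:82859104-82859132, plus strand, around the match: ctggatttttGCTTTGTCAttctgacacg
Srxn1, chr2:152105542-152105570, plus strand, around the match: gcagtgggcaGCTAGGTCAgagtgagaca
Counted from the start, the matches lie at bases -240 to -232 for Nfe2l2, -134 to -126 for Gclm, -92 to -84 for Txnrd1 and 29 to 37, inside the transcribed part, for Srxn1. A match is a description of letters and not evidence of binding.

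The arrays first, in brief. The Pearson correlation over genes was 0.982 between both control arrays, 0.991 between both knockout arrays and 0.948 to 0.954 between a control and a knockout array. No row named miR-122 itself, so the deletion was not read directly. Of 13 reported miR-122 targets 12 rose, where 10.8% of all genes did, with a median difference of 1.03. These 13 genes were listed with earlier results of these data known, so their rise is not a test of the deletion. All 12 measured hepatocyte markers were present at high signal, and none passed the test or had an unadjusted p under 0.05 in limma. Their control means ran from 11.285 to 13.68, and whether such high signals could still show a change in RNA was not tested. Over all genes 1394 rose and 534 fell, and the median difference was 0.005. The share of called genes that rose was 72.3%, and it was 55.9% when each array was scaled to the same median and 61.2% after quantile normalization. The labels do not say that the samples of a group came from separate mice, so the p-values measure only the spread between these samples, which may be technical, and their number limits the precision.

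Hmox1, the inducible enzyme that opens the heme ring and releases iron, carbon monoxide and biliverdin, was the member that rose (probe set 10572897). Its level was 7.71 and 7.48 on the control arrays and 9.18 and 9.26 on the knockout arrays. The groups did not overlap, and the gap between them was several times the spread within either. The means were 7.595 ± 0.163 in controls and 9.22 ± 0.0566 in knockouts (SD, n = 2 each), a difference of 1.625 (SE 0.122, 95% interval 1.33 to 1.92) with an adjusted p of 0.00234 in limma. On the linear scale this was 3.08-fold, with an interval of 2.51 to 3.79, and by p it ranked 50th of the 12871 genes. In the authors' deposited table the fold was 3.08 and the p-value 1.25e-05.

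The Hmox1 difference itself stayed between 1.51 and 1.74 when any 1 of the 4 arrays was left out. The call was then lost with limma's standard prior, whichever array was left out, and kept with a robust prior, chosen after seeing the data. In such a fit 1 group has a single sample, which is assumed to vary like the other group, and with the standard prior limma called no gene of the 12871 (2267 to 3490 had an unadjusted p under 0.05), so that loss is not particular to Hmox1. When all 35556 probe sets of the array, including those outside the authors' table, entered the fit, the adjusted p of Hmox1 was 0.0632. With an intensity trend added to that limma fit it was 0.0246, and both fits were chosen after seeing the data.

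Nfe2l2 (probe set 10483809), which encodes NRF2 itself, had levels of 9.39 and 9.49 on the control arrays and 9.76 and 10.35 on the knockout arrays. Both knockout values lay above both control values, but they were farther from each other than the lower one was from the controls. The difference was 0.615 (SE 0.198, 95% interval 0.133 to 1.10), with an unadjusted p of 0.0203 and an adjusted p of 0.0925 in limma. Without the second knockout array it was 0.32, and without the first 0.91. NRF2 is controlled mainly through its protein's stability, which an RNA array does not read.

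Keap1 (probe set 10591482), the gene for the sensor that binds NRF2 for degradation, was at 7.56 on both control arrays and at 7.54 and 7.65 on the knockout arrays. The groups overlapped. The difference was 0.035 with a 95% interval of -0.222 to 0.292, so a change of Keap1 beyond 1.22-fold in either direction lies outside the interval.

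**Figure D1:**
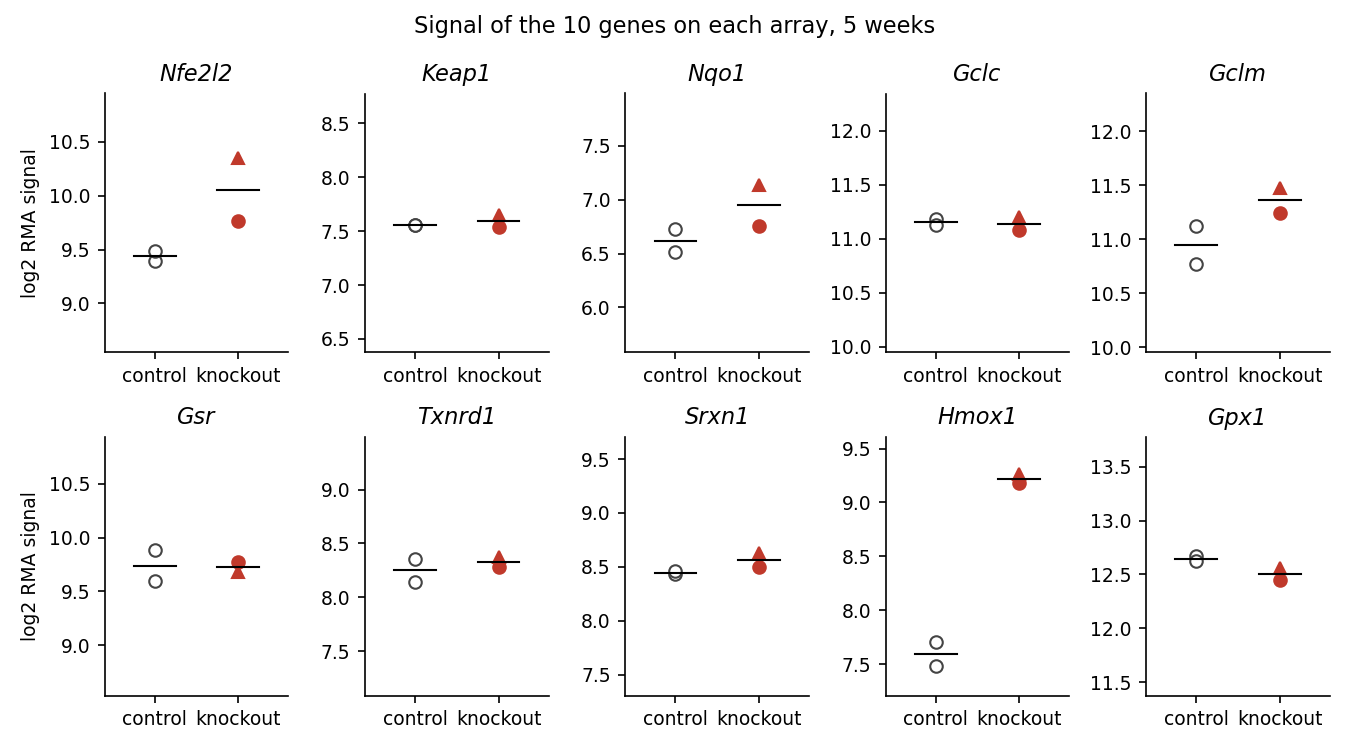
Log2 RMA signal (vertical axis) of the 10 genes in control (open circles) and knockout livers (filled circle, knockout 1; filled triangle, knockout 2) at 5 weeks, with group means as lines; every panel spans the same range of log2 units. Hmox1 went from 7.48 and 7.71 to 9.18 and 9.26, while Nfe2l2, Gclm and Nqo1 showed smaller gaps, with a wide spread between both knockout arrays for Nfe2l2 and Nqo1 and between both controls for Gclm.

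Among enzymes that NRF2 is known to control, Nqo1 (probe set 10581538) encodes a quinone reductase often used as a readout of the pathway. Its levels were 6.51 and 6.73 in controls and 6.76 and 7.14 in knockouts. The higher control and the lower knockout value were almost the same. The difference was 0.33 (SE 0.161, 95% interval -0.0607 to 0.721), with an adjusted p of 0.227.

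Gclc and Gclm encode the catalytic and the modifier subunit of glutamate-cysteine ligase, the rate-limiting enzyme of glutathione synthesis. Gclm (probe set 10495763) was at 11.12 and 10.77 in controls and at 11.24 and 11.48 in knockouts. The groups were separate, by less than the spread between both controls. Its difference was 0.415 (SE 0.157, 95% interval 0.0322 to 0.798), with an unadjusted p of 0.0378 and an adjusted p of 0.138. Gclc (probe set 10587266) was at 11.18 and 11.13 in controls and at 11.08 and 11.20 in knockouts. Its groups overlapped, and the difference was -0.015 with a 95% interval of -0.276 to 0.246. Whether both subunit genes differed from each other in their response was not tested.

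Gsr (probe set 10571274) encodes glutathione reductase, which returns oxidised glutathione to its reduced form with NADPH. Its levels were 9.88 and 9.60 in controls and 9.77 and 9.68 in knockouts. Both knockout values lay between both control values, and the difference was -0.015 (95% interval -0.334 to 0.304).

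Txnrd1 encodes the cytosolic thioredoxin reductase, a selenoprotein that keeps thioredoxin reduced. Txnrd1 (probe set 10365260) was at 8.36 and 8.14 in controls and at 8.28 and 8.37 in knockouts, with overlapping groups and a difference of 0.075 (95% interval -0.220 to 0.370). Srxn1 encodes sulfiredoxin, which repairs overoxidised peroxiredoxins. Srxn1 (probe set 10477061) was at 8.43 and 8.46 in controls and at 8.50 and 8.63 in knockouts. The groups were separate by a narrow gap, the difference was 0.12 (95% interval -0.142 to 0.382), and the adjusted p was 0.508.

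Gpx1 (probe set 10588899) encodes the abundant selenium-dependent glutathione peroxidase of the liver cytosol, which reduces hydrogen peroxide and is controlled more by selenium supply than by NRF2. Its levels were 12.67 and 12.62 in controls and 12.45 and 12.56 in knockouts. It was the only one of the 10 genes with both knockout values below both control values. The difference was -0.14 (95% interval -0.399 to 0.119), with an adjusted p of 0.431.

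**Figure D2:**
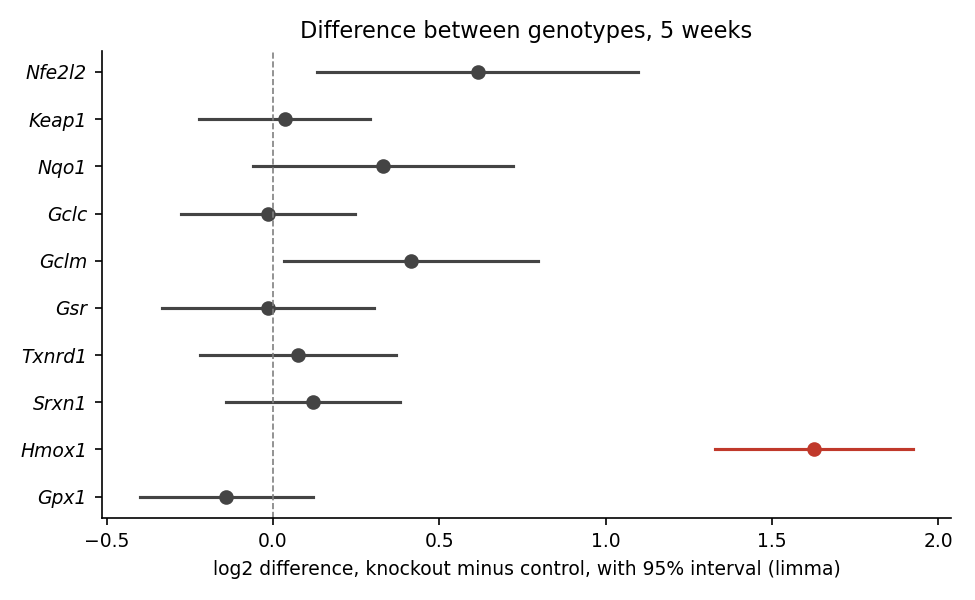
Log2 difference, knockout minus control, of each gene (points) with its 95% interval from limma (lines); red marks an adjusted p under 0.05 over all genes. Hmox1 stands at 1.625, the interval of Nfe2l2 runs from 0.133 to 1.10, and 7 of the 10 intervals include 0.

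Counted together, 1 of the 10 genes was called, or 10%, where 15.0% of all genes were called in either direction and 13.4% were when the authors' deposited p-values were adjusted instead. At an unadjusted p under 0.05 stood 3 of the 10 (Hmox1, Nfe2l2 and Gclm), where 30.5% of all genes did. Both shares are near the background, so neither count says anything particular about the group. On 5 of the 10 genes both knockout arrays lay above both controls, against 32.1% of all genes, and on 1 both lay below, against 27.0%. Their median difference was 0.0975, beside 0.005 over all genes. The second knockout array was above the first on 9 of the 10 genes, all but Gsr, while it was above the first on 48.2% of all genes.

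The other genes, named pathway genes here, came from 9 lists of the pathway and related functions, with 137 genes, 128 of them measured. Of these, 27 rose and 9 fell, or 28.1%, where 10.8% of all genes rose and 4.15% fell. Their median difference was 0.10. By list, 87.5% of the superoxide-generating oxidases and 52.4% of the detoxification and transport genes were called. In the other lists the share ran from 7.69% to 30%, beside 15.0% of all genes. The 28.1% is therefore not a share that every list had. Without 1 of the 4 arrays no pathway gene was called with the standard prior, and 5 to 20 were with the robust prior. With all 35556 probe sets in the fit none was called, although 3184 of the 12871 genes had an unadjusted p under 0.05 in that limma fit. With an intensity trend added to that fit, 6 pathway genes were called. Single calls below thus rest on the choice of the authors' table and on such settings.

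**Figure D3:**
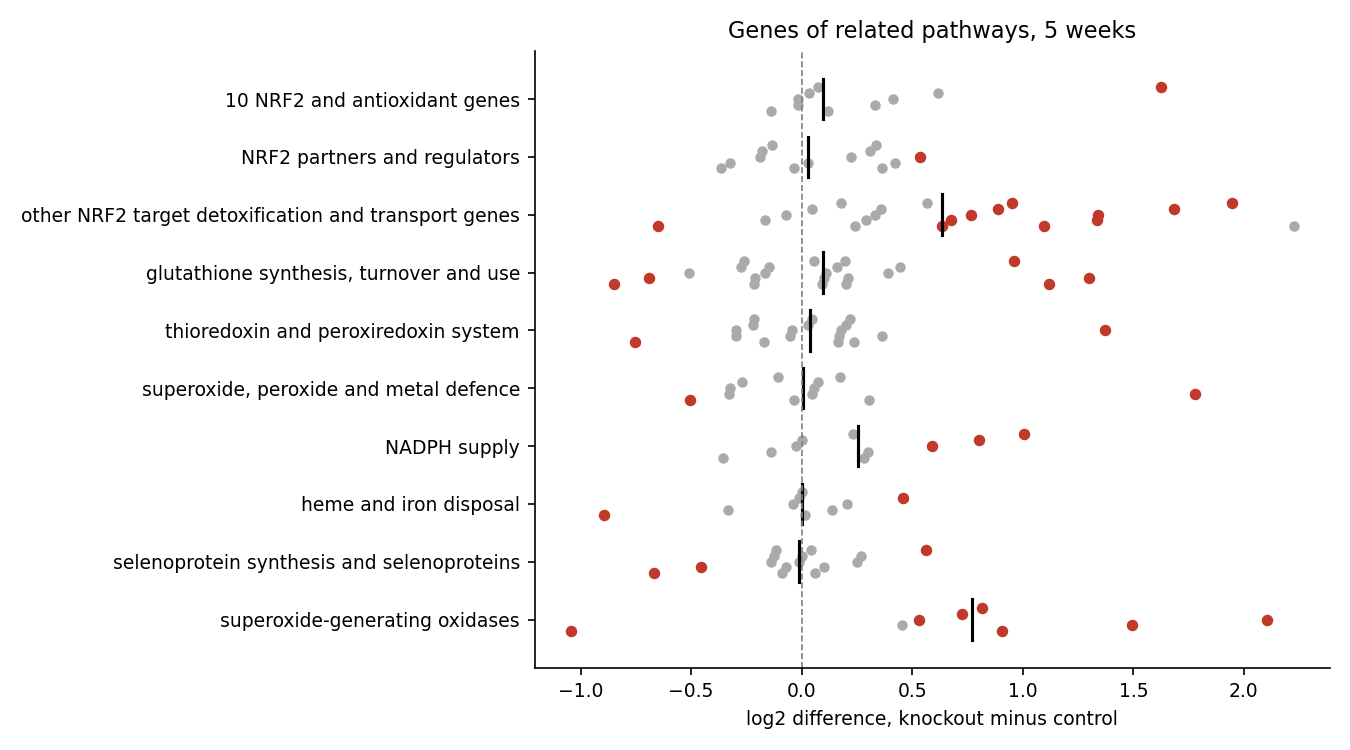
Log2 difference, knockout minus control (horizontal axis), of the 10 genes and of every measured gene of 9 related lists (rows); red points passed the test, grey points did not, and black lines mark each list's median. The medians of detoxification genes (0.635) and of superoxide-generating oxidases (0.77) lie right of the others, which run from -0.01 to 0.255.

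The partners and regulators of NRF2 had 1 gene that rose and none that fell among 13 measured, with a median of 0.03. That is 7.69% called, where 15.0% of all genes were called in either direction. The riser was Gsk3b, the gene for a kinase that marks NRF2 for a second route of degradation, by 0.535 (adjusted p = 0.0245 in limma). Among members that did not pass, Bach1, the gene for the repressor that competes with NRF2 at Hmox1, was at 8.23 and 8.15 in controls and at 7.81 and 7.84 in knockouts. Its difference was -0.365 (adjusted p = 0.0668). Mafk, a small MAF partner gene, differed by 0.42 (adjusted p = 0.0516), and Cul3 by 0.335 (adjusted p = 0.0962). Mafg, another small MAF gene, went the other way, by -0.18 (adjusted p = 0.314 in limma).

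Detoxification and transport genes that NRF2 is known to induce had 10 genes that rose and 1 that fell among 21 measured, with a median of 0.635. In this list 52.4% were called, where 10.8% of all genes rose and 4.15% fell. Gstm3, a mu-class glutathione transferase gene, went from 10.36 and 10.35 in controls to 11.90 and 12.70 in knockouts, a difference of 1.945 (adjusted p = 0.00722). Ptgr1, for a reductase of reactive alkenals and prostaglandins, rose by 1.685, from control levels of 5.44 and 5.56. These lie below 5.98, the median of 41 olfactory receptor genes in the table, which liver is not known to use, so the size of that change is uncertain. Gsta4, whose enzyme conjugates the lipid peroxidation product hydroxynonenal, rose by 1.335 and the oxidoreductase gene Htatip2 by 0.675. The bile salt and glucuronide exporter gene Abcc3 fell by 0.65. Gsta1, Gsta2 and the Gstm genes are close paralogs, and the probe sets may not keep them apart. The second knockout array was above the first on 16 of the 21 genes.

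Genes of NADPH supply, the reducing power for Nqo1, Gsr and Txnrd1, had 3 genes that rose and none that fell among 10, with a median of 0.255. The share called was 30%, beside 15.0% of all genes. Pgd and G6pdx, both dehydrogenases of the oxidative pentose phosphate pathway, rose by 1.005 (adjusted p = 0.00929) and 0.80 (adjusted p = 0.012), and the malic enzyme gene Me1 rose by 0.59 (adjusted p = 0.0274). Pgd was at 7.69 and 7.96 in controls and at 8.72 and 8.94 in knockouts, with a wide gap between the groups.

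Genes of glutathione synthesis, turnover and use had 3 that rose and 2 that fell among 22 measured, with a median of 0.095. That is 22.7% called, where 15.0% of all genes were. The secreted peroxidase gene Gpx3 rose by 1.30, the endoplasmic reticulum peroxidase gene Gpx7 by 1.12 and the microsomal transferase gene Mgst3 by 0.96. Control levels of Gpx7, 5.84 and 6.10, were near 5.98, so its size is uncertain. Glo1, for the enzyme that clears methylglyoxal with glutathione, fell by 0.85, and the glutaredoxin gene Glrx fell by 0.69. The thioredoxin and peroxiredoxin system had 1 riser and 1 that fell among 18, or 11.1% called, with a median of 0.0375. Txnip, the gene for the thioredoxin-binding inhibitor, rose by 1.37, and Txn2, for the mitochondrial thioredoxin, fell by 0.755. All 6 peroxiredoxin genes stayed short of the threshold, with adjusted p-values from 0.103 to 0.922.

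In the list of superoxide, peroxide and metal defence, 1 of 12 genes rose and 1 fell, with a median of 0.005. The share called, 16.7%, was near the 15.0% of all genes. Ucp2, the gene for a mitochondrial carrier, rose by 1.78 and the paraoxonase gene Pon1 fell by 0.505. The catalase gene Cat was at 13.35 and 13.25 in controls and at 13.38 and 13.37 in knockouts, a difference of 0.075 (adjusted p = 0.684). Of the 15 genes of selenoprotein synthesis and selenoproteins, 1 rose (Selenom, by 0.56, of uncertain size with control levels of 5.90 and 6.02) and 2 fell, the deiodinase gene Dio1 by 0.67 and Sepsecs, whose enzyme makes selenocysteine on its tRNA, by 0.455. The list's median was -0.01, and 20% of its genes were called, where 15.0% of all genes were.

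Genes listed under heme and iron disposal, Fech among them, had 1 riser and 1 that fell among 9, with a median of 0. That is 22.2% called, beside 15.0% of all genes. Blvrb, the gene for a biliverdin and flavin reductase, fell by 0.895, from 10.98 and 10.97 in controls to 9.98 and 10.18 in knockouts (adjusted p = 0.00737). Blvra, the other biliverdin reductase gene, was at 6.54 and 6.90 in controls and at 6.87 and 6.55 in knockouts. Its difference was -0.01 (adjusted p = 0.981 in limma). The iron exporter gene Slc40a1 rose by 0.46 (adjusted p = 0.0424). Hmox2, the constitutive heme oxygenase gene, was at 10.23 and 10.12 in controls and at 10.25 and 10.10 in knockouts, a difference of 0. The ferritin genes Fth1 and Ftl1 differed by 0.205 (adjusted p = 0.243) and -0.04 (adjusted p = 0.853).

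Genes of superoxide-generating oxidases had 6 that rose and 1 that fell among 8 measured, with a median of 0.77. In this list 87.5% were called, where 10.8% of all genes rose and 4.15% fell. Cybb and Cyba, the membrane subunits of the phagocyte NADPH oxidase, rose by 2.105 and 1.495, with adjusted p-values of 0.00151 and 0.00287 in limma. Cybb was at 8.06 and 7.91 in controls and at 10.24 and 9.94 in knockouts. The cytosolic subunit gene Ncf1 rose by 0.815 and the GTPase gene Rac2, used by the same complex in blood cells, by 0.905. Nox4, an oxidase gene outside phagocytes, fell by 1.045, with a control spread of 7.60 and 6.82.

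Markers of some other liver cell types, though not of all, were also higher in knockouts. Of the 15 Kupffer cell and macrophage markers 12 rose and none fell, where 10.8% of all genes rose. All 15 had a difference above 0, with a median of 0.96. The sum of their linear signals was 5668 and 6138 on the control arrays and 12868 and 11150 on the knockout arrays. Lyz2 rose by 1.595 and Mpeg1 by 1.535. Itgam and Marco had control means below 5.98, so the sizes of their differences are uncertain. The part of macrophage RNA in the Hmox1 difference was not tested, and in whole liver more cells of a type and more RNA per cell cannot be told apart. On 14 of the 15 macrophage markers the first knockout array was above the second, an order within 2 samples that was not tested.

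The other marker lists were read in the same way, beside the 10.8% of all genes that rose. For stellate cells and fibroblasts 8 of 13 markers rose, with summed signals of 4967 and 6055 in controls and 8236 and 8321 in knockouts. Cholangiocyte and progenitor markers rose in 7 of 9. Of these risers, Prom1, Cldn7 and Epcam had control means below 5.98, so the sizes of their changes are uncertain. The sums of the list were 1083 and 1170 against 3792 and 4183. Spp1 carried much of that gap, and without it the sums were 858 and 894 against 1582 and 1696, while the bile duct keratin genes Krt7 and Krt19 differed by 0.10 and -0.315 and did not pass. Of the 10 neutrophil markers only 5 were in the authors' table, with sums of 241 and 211 against 541 and 393. All 5 had control means below 5.98, from 4.78 to 5.96. That of S100a8, 4.78, was below 4.941, the lowest value the higher group mean took for any probe set in the authors' table. The 4 calls among these 5 markers are therefore not read as a rise of the list. Of 11 lymphocyte markers 7 were measured and 2 rose, with sums of 523 and 534 against 793 and 664. Control means of 3 of these 7 lay below 5.98, among them that of the riser Ltb. Sinusoidal endothelial markers had 1 riser and 1 that fell among 9, and their sums, 5908 and 6316 against 6347 and 6238, overlapped. Hepatocyte markers had sums of 105130 and 104397 against 102209 and 101215, with differences from -0.14 to 0.075. None of the 6 erythroid markers passed in limma, also none at an unadjusted p under 0.05, with sums of 30514 and 22751 in controls and 24720 and 36081 in knockouts, so the erythroid sum was highest on the second knockout array. The part of these cells in the differences above was not tested.

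**Figure D4:**
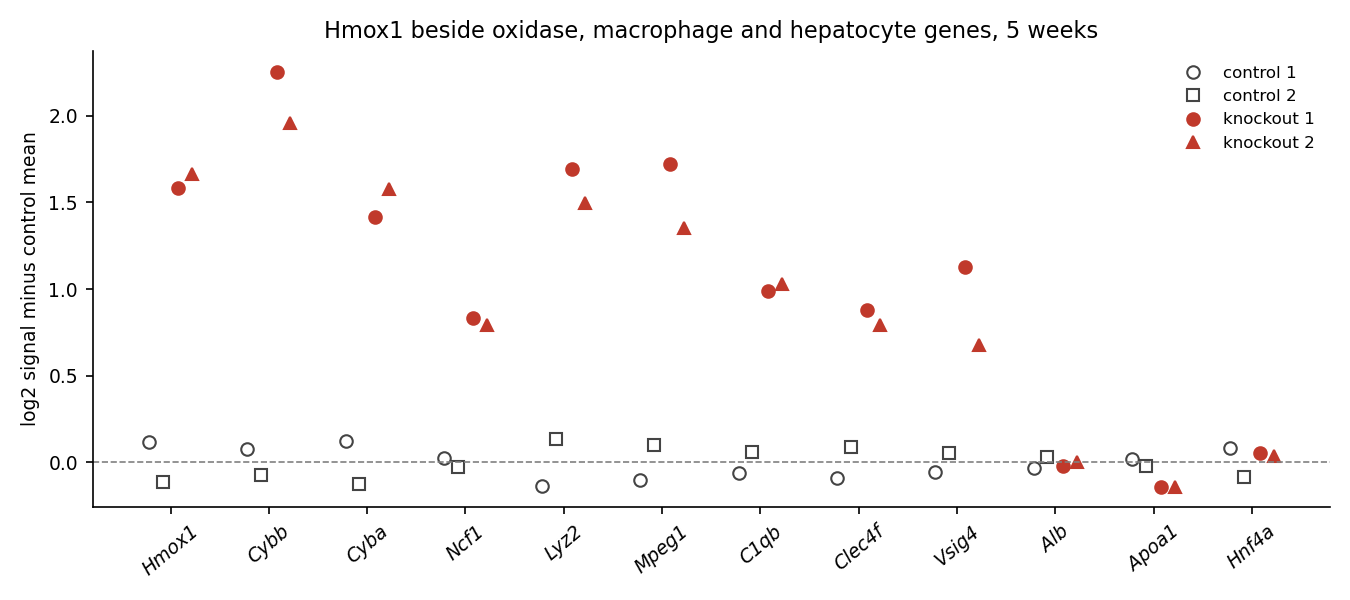
Log2 signal minus the control mean of each gene (vertical axis) on each of the 4 arrays, for Hmox1, 3 phagocyte oxidase genes, 5 macrophage markers and 3 hepatocyte genes. Hmox1, Cybb, Lyz2 and the other oxidase and macrophage genes shown lie above both controls on both knockout arrays, while the hepatocyte genes Alb, Apoa1 and Hnf4a stay within 0.14 of their control means.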

How the data were processed

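Values per array came from the deposited value table of 4 arrays, log2 signals that the authors made with Affymetrix Expression Console and RMA, per the submitters' processing notes; the sources used here give neither array version nor genome build. The authors' deposited results table gave gene names for 14996 of the 35556 probe sets, selected by an unstated rule, and the authors' fold (a linear ratio) and p-value, whose test is unstated. Its log2 group means equalled those of the value table within 0.005. Its 4 columns of single arrays match no sample label and were not used. Names were updated through RefSeq (GRCm38.p6): 13056 probe sets by accession, 987 by symbol and 485 by synonym, 380 kept their own name, and 88 with several symbols were left out. The probe set with the highest mean was kept for each of 1048 genes with several, which left 12871 genes. Deposited values are rounded to 2 decimals. They were fitted with limma 3.58.1 in R 4.3.3 (lmFit, eBayes), knockout against control, without covariates. The function was checked on simulated data. All 10 genes are named, plus up to 4 called genes with the smallest p of each list and exceptions. Members and lists were chosen with earlier results of these data known. The planned fits at 8 weeks and of the difference between ages were not run, since those probe sets are not paired with genes here.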

Additional observations from a re-analysis of the deposited data

How the results depend on the processing

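Under 18 alternatives, 7 of them chosen after seeing the data, Hmox1, Nfe2l2, Gclm, Nqo1 and Srxn1 kept a higher mean in knockouts and Gpx1 a lower one. Hmox1 was called in 13 of the 18, and no other of the 10 genes in any, although Nfe2l2 came to an adjusted p of 0.0667. Differences near 0 changed sign. After quantile normalization Gclc was 0.0369, Gsr 0.000625 and Keap1 -0.0525, and with each array scaled to the same median Keap1 was -0.05 and Txnrd1 -0.01. Without 1 array, Gclc ranged from -0.075 to 0.045, Gsr from -0.155 to 0.125, Keap1 from -0.02 to 0.09 and Txnrd1 from -0.035 to 0.185. The count of the 10 genes called, 1 in the fit reported, was 0 to 1 without 1 array and 0 with all 35556 probe sets in the fit, where 5640 of them had an unadjusted p under 0.05. The count of pathway genes called, 36 in the fit reported, was 0 to 20 without 1 array, 0 with all probe sets, 6 with all probe sets and an intensity trend, and 17 with a replicate block. Over all genes the count of 1928 became 0 to 1166 without 1 array, 0 with all probe sets, 381 with all probe sets and an intensity trend, and 837 with the block. In the fits without 1 array the residual spread comes only from the 2 arrays of the complete group. It was below that of rounding for 334 genes without either control array and for 236 without either knockout array, against 7 with all arrays. The deviations of same-numbered samples correlated at 0.043 over genes, with only 2 pairs, so the numbers were not taken to pair the samples. No alternative was run for the 8-week samples or for the difference between ages.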
